A study of Mus musculus with 4 samples.

Results

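The genes described here are the transcription factors that direct CD4+ T cells towards one helper lineage or another, together with Il12rb2, the signalling chain of the interleukin 12 receptor. They were taken by gene symbol as Tbx21, Eomes, Gata3, Foxp3, Bcl6, Prdm1, Maf, Stat4 and Il12rb2. All 9 had 1 row of their own, of 19752 genes with such a row on the array, and all 9 were among the 10699 genes bright enough to be tested. RNA came from splenic CD4+ T cells of male C57BL/6 mice aged 6 weeks, an inbred strain with no allele or transgene named in the labels. Cells were purified by negative selection, stimulated through CD3 and CD28 on beads for 48 h, and measured on Affymetrix Mouse Gene 1.0 ST arrays. The baseline group (2 arrays) had this stimulation and no cytokine, and the other groups were then given interferon alpha (IFNa), a type I interferon, at 100 U/ml for 2 h (1 array) or 8 h (1 array). Every group shared the bead activation, so no resting T cells are among the 4 arrays. The labels do not say whether mice were pooled or whether the 2 baseline samples came from separate animals or cultures. The preparation label of both IFNa samples also mentions JAK inhibitors, as present or absent, and none of the arrays holds cells cultured on for 2 h or 8 h without IFNa, so an effect of IFNa and an effect of further culture cannot be told apart.

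A naive CD4+ T cell adopts a helper fate when cytokine signals during activation switch on a lineage factor that promotes its own programme and represses the others. Tbx21 (T-bet) directs the Th1 fate and induces Il12rb2, which lets the cell respond to interleukin 12 through the signal transducer Stat4. Gata3 directs the Th2 fate, Foxp3 the regulatory fate and Bcl6 the follicular helper fate, and Bcl6 and Prdm1 (Blimp-1) repress each other.

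Il12rb2 and Bcl6 were the genes that differed past the threshold in some comparison, and the 250 bases before their annotated starts are shown because both are responsive to cytokines that act through STAT proteins. The sequences are those of RefSeq on the mouse build GRCm38.p6, whose table held starts for 8 of the 9 genes and 11 starts in all. They are written 5′ to 3′ on the gene's strand, and capitals mark the letters TTCNNNGAA, the gamma-activated site (GAS) that STAT dimers recognise. The windows are chr6:67376189-67376438 (minus strand) for Il12rb2, chr16:23988853-23989102 (minus) for the first start of Bcl6 and chr16:23981284-23981533 (minus) for its second.
Il12rb2: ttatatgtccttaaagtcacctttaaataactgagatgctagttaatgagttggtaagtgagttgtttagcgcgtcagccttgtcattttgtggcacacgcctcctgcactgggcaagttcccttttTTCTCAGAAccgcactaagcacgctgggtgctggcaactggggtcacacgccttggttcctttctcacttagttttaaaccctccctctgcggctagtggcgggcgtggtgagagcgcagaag
Bcl6 first start: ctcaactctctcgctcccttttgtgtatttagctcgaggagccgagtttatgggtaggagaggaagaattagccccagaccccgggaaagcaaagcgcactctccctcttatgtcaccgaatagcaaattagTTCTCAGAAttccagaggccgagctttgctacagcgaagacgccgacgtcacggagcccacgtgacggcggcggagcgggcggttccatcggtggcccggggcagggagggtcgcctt
Bcl6 second start: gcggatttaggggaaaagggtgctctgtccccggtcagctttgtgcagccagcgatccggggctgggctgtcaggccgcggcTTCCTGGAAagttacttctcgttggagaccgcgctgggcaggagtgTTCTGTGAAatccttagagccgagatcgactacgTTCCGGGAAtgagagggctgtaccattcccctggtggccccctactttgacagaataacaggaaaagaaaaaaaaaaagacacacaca
The Il12rb2 window held 1 match, from 123 to 115 bases before the start, and it has the same 9 letters, TTCTCAGAA, as the match in the first Bcl6 window, from 118 to 110 bases before the start. The second Bcl6 window held 3 matches. GAS letters, which read the same on both strands, occurred in 7.02% of all 32851 promoter windows of this length. The core of the interferon-stimulated response element, GAAANNGAAA on either strand, which the ISGF3 complex recognises, occurred in 2.98% of them. It was in neither the Il12rb2 nor the Bcl6 windows, and stood once before Eomes (GAAAATGAAA) and once before the second start of Stat4 (GAAAGTGAAA). The T-box letters GGTGTGA on either strand, in 3.33% of all windows, were found before none of the 8 genes. No GAS letters lay before Tbx21, Gata3, Prdm1, Eomes or Stat4, and 1 match lay before the second start of Foxp3. These matches describe letters in a short window and say nothing of binding.

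The deposited intensities were RMA values, analysed here on a log2 scale, and levels of different genes are not set against each other because each probe set has its own brightness. Over the tested genes the 2 baseline arrays had a Pearson's r of 0.982, computed across genes rather than independent replicates. All 7 markers of CD4+ T cells (Cd4, Cd3e, Cd3d, Cd3g, Cd5, Cd28, Thy1) lay above the array median on every array, as the label asks. None of 6 NK cell markers did, with sums of 378 and 368 at baseline, 406 after 2 h and 410 after 8 h. The summed intensity of 2 CD8 markers was 1112 and 1001 at baseline, 921 after 2 h and 1191 after 8 h, and Cd8b1 was above the median on every array. The sum of 5 measured B cell markers was 2270 and 2295 at baseline, 2249 after 2 h and 2929 after 8 h, with 4 of the 5 above the median on each array. Of 8 myeloid and dendritic markers 2 were above it on each array, with sums of 1258 and 1074 at baseline, 919 after 2 h and 1090 after 8 h. Of 5 plasma cell markers 2 were above it. Their sum of 5609 and 6421 at baseline, 5300 after 2 h and 3034 after 8 h was mostly Xbp1, which T cells also express and which fell at 8 h (log2 difference −1.12, SE 0.21, limma adjusted p = 0.0308). Eomes is also made by NK and CD8 T cells, and Bcl6 and Prdm1 by B lineage cells. The part of these cells in the values below was not tested, and in bulk RNA fewer expressing cells and less RNA per cell cannot be told apart.

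The comparisons ask whether the helper bias of the culture shifted under IFNa. They were made with limma in a model with 3 group means, two-sided, with Benjamini-Hochberg adjustment over all tested genes. Only the 2 baseline arrays informed the spread, so each lone IFNa array was assumed to vary as they do and no IFNa value has a replicate check. At 2 h none of the 9 genes passed an adjusted p of 0.05 (limma), against 1.1% of all tested genes. An unadjusted limma p under 0.05 at 2 h was held by 2 of the 9, and by 1298 of all 10699 tested genes. At 8 h 1 of 9 passed and was lower, against 4% of all tested genes in either direction and 3.35% lower. Between 8 h and 2 h 2 of 9 passed, both lower at 8 h, against 12.3% of all tested genes in either direction and 10.8% lower. The median difference of the 9 genes was 0.07 at 2 h, −0.07 at 8 h and −0.10 for 8 h against 2 h, beside 0.06, −0.16 and −0.25 over all tested genes. The medians of all tested genes moved to −0.01, −0.002 and 0.002 after quantile normalization and to 0.15, −0.24 and −0.43 with arrays centred on their medians. Higher and lower calls over all genes numbered 117 and 1 at 2 h, 70 and 358 at 8 h, and 156 and 1155 for 8 h against 2 h. After quantile normalization they numbered 332 and 109, 665 and 901, and 992 and 1316.

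**Figure D1:**
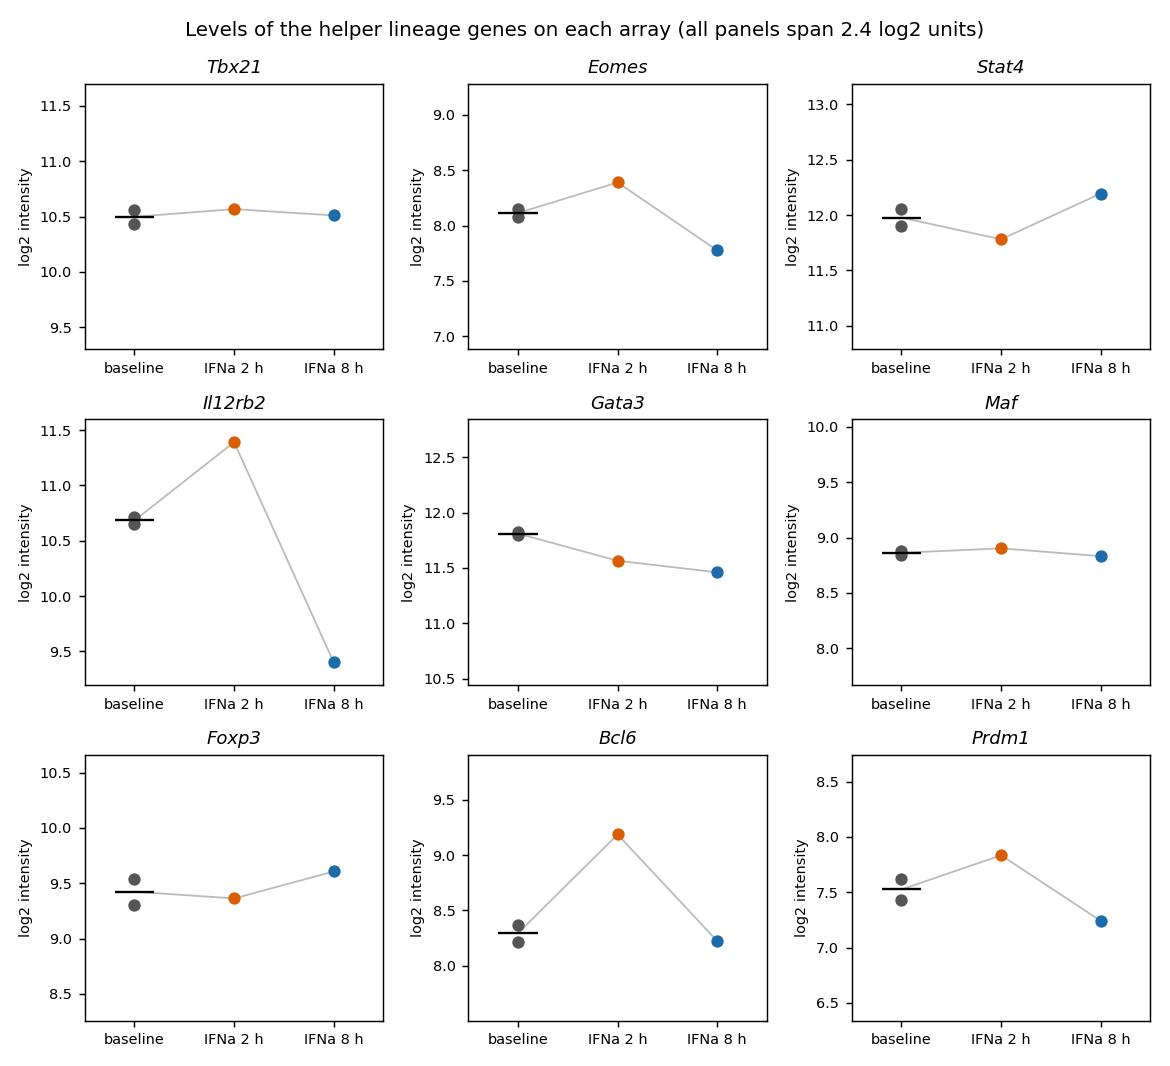
Log2 intensity of each of the 9 genes (vertical axis, 2.4 log2 units in every panel) on the 2 baseline arrays (grey, with a bar at their mean) and the single IFNa 2 h (orange) and 8 h (blue) arrays. Il12rb2 stands above both baseline arrays at 2 h and far below them at 8 h, Bcl6 is high at 2 h alone, and Tbx21 and Maf lie nearly flat on this scaling.

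Il12rb2, whose product pairs with Il12rb1 to form the interleukin 12 receptor, was the gene of this set that varied most. Its intensity was 1681 and 1609 on the baseline arrays, 2686 after 2 h of IFNa and 676 after 8 h, or 10.71, 10.65, 11.39 and 9.40 on the log2 scale. The 2 h array thus lay above both baseline arrays and the 8 h array below both, while the baseline arrays differed by 0.06. At 8 h Il12rb2 fell by 1.28 on the log2 scale against baseline (SE 0.20, 1 array against 2, limma adjusted p = 0.0174), a level 0.411 times that of baseline. It ranked 96th from the lowest of 10699 tested genes. Against the median of all tested genes the 8 h difference was −1.12. At 2 h it was 1.63 times baseline (log2 difference 0.71, SE 0.20, 95% interval 0.25 to 1.17), which did not pass (limma adjusted p = 0.209, unadjusted p = 0.00729). The difference between the times was the widest: 8 h stood at 0.252 times the 2 h level (log2 difference −1.99, SE 0.23, limma adjusted p = 0.0079), 40th from the lowest of all tested genes. Only 0.813% of tested genes spanned a wider range over the 4 arrays. The fall at 8 h against baseline and that against 2 h passed under all 8 settings that allowed a test.

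Stat4, which carries the interleukin 12 signal to the nucleus, moved the opposite way at each time without passing. It stood at 12.05 and 11.90 at baseline, 11.78 after 2 h and 12.20 after 8 h on the log2 scale. The 2 h value lay below both baseline arrays and the 8 h value above both. The differences were −0.20 (SE 0.21, 95% interval −0.67 to 0.27) at 2 h, 0.22 (SE 0.21, −0.25 to 0.69) at 8 h and 0.41 (SE 0.24, −0.13 to 0.96, limma adjusted p = 0.237) for 8 h against 2 h. The 2 h value was −0.12 without baseline replicate 1, −0.33 after quantile normalization and −0.096 with arrays centred on their medians. Centring gave 0.14 at 8 h and 0.24 for 8 h against 2 h, and without baseline replicate 2 the 8 h value was 0.14.

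Tbx21, the Th1 factor that induces Il12rb2, varied little on the deposited scaling. It measured 10.44 and 10.56 at baseline, 10.57 after 2 h and 10.51 after 8 h. All 4 values lay within 0.13 of each other, a range that 97.3% of tested genes exceeded. With other scalings it varied more, and the difference of 8 h from 2 h (−0.06) became 0.25 after quantile normalization and −0.24 with centring. Its difference from baseline was 0.07 (SE 0.20, 95% interval −0.40 to 0.54) at 2 h and 0.01 (SE 0.20, −0.45 to 0.48) at 8 h, and the sign of both turned with the scaling of the arrays, that at 8 h also without baseline replicate 1 (−0.050). Eomes, the related T-box factor known from CD8 and NK cells, measured 8.15 and 8.08 at baseline, 8.39 after 2 h and 7.78 after 8 h. It lay above both baseline arrays at 2 h and below both at 8 h, with differences of 0.28 (SE 0.20, 95% interval −0.19 to 0.74) and −0.34 (SE 0.20, −0.80 to 0.12). The difference of 8 h from 2 h was −0.61 (SE 0.23, −1.15 to −0.08, unadjusted p = 0.0285, limma adjusted p = 0.101) and did not pass. Of the marker sums given above, that of CD8 T cells was lower than on either baseline array at 2 h and higher at 8 h. The sum of NK cell markers, all under the array median, was higher on both IFNa arrays, but its genes differed in direction. Ncr1, Klra8 and Klre1 stood below their baseline means at both times and Klrk1 above (0.73 at 2 h, 0.26 at 8 h). Klrb1c (0.21, −0.06) and Tyrobp (−0.02, 0.27) changed sign between the times. The part of NK and CD8 T cells in the Eomes values was not tested.

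Gata3, the Th2 factor, was lower on both IFNa arrays than on either baseline array, without passing at either time. It measured 11.80 and 11.82 at baseline, 11.56 after 2 h and 11.46 after 8 h. The differences were −0.25 (SE 0.20, 95% interval −0.70 to 0.21, limma adjusted p = 0.641) and −0.35 (SE 0.20, −0.81 to 0.11, limma adjusted p = 0.31), and over the settings tried they ran from −0.37 to −0.15 and from −0.43 to −0.23. At 8 h 55.9% of all tested genes lay below both baseline arrays, and at 2 h 33% did. Maf (c-Maf), which acts with several lineages and drives cytokines such as Il4, Il21 and Il10, had the narrowest range of the set on the deposited scaling. It measured 8.84 and 8.88 at baseline, 8.90 after 2 h and 8.83 after 8 h, a range of 0.07 that 99.5% of tested genes exceeded. Its differences of 0.04 (95% interval −0.42 to 0.50) and −0.03 (−0.49 to 0.43) changed sign after quantile normalization, to −0.06 and 0.25, and the difference of 8 h from 2 h (−0.07) became 0.30.

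Foxp3, the factor of regulatory T cells, measured 9.31 and 9.54 at baseline, 9.36 after 2 h and 9.61 after 8 h. The 2 h value lay between the baseline arrays and the 8 h value just above both, and these baseline arrays differed by 0.24, the widest gap of the 9 genes. The differences were −0.06 (SE 0.21, 95% interval −0.55 to 0.42) at 2 h and 0.18 (SE 0.21, −0.30 to 0.67) at 8 h. Without baseline replicate 1 they were −0.18 and 0.065, and without baseline replicate 2 they were 0.057 and 0.30. After quantile normalization they were −0.19 and 0.45, and with centring 0.038 and 0.10. For 8 h against 2 h the difference of 0.24 (SE 0.25, −0.32 to 0.80, limma adjusted p = 0.496) became 0.64 (limma adjusted p = 0.0489) after quantile normalization and 0.065 with centring.

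Bcl6, the repressor that directs the follicular helper fate, was high on the 2 h array alone. Its intensity was 298 and 331 at baseline, 582 after 2 h and 299 after 8 h, or 8.22, 8.37, 9.19 and 8.22 on the log2 scale. The 8 h value fell between the 2 baseline values. At 2 h it stood at 1.86 times baseline (log2 difference 0.89, SE 0.21, 95% interval 0.42 to 1.36). This did not pass over all genes (limma adjusted p = 0.114, unadjusted p = 0.0022), but passed after quantile normalization (0.76, adjusted p = 0.0235) and with arrays centred on their medians (0.99, adjusted p = 0.0286). Of all tested genes 2.44% differed by more in either direction at 2 h. At 8 h Bcl6 was 0.513 times its 2 h level (log2 difference −0.96, SE 0.24, limma adjusted p = 0.0382). That call ended with no filter on dim genes (adjusted p = 0.0775). Relative to the median of all tested genes the difference was −0.71.

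Prdm1, the repressor that opposes Bcl6, was dim, above the array median on 2 of the 4 arrays. It measured 7.43 and 7.62 at baseline, 7.83 after 2 h and 7.24 after 8 h. The order of the arrays resembled that of Eomes, above both baseline values at 2 h and below both at 8 h. The differences of 0.31 (SE 0.21, 95% interval −0.17 to 0.79) and −0.28 (SE 0.21, −0.76 to 0.19) did not pass. The 8 h value was −0.19 without baseline replicate 2 and −0.44 after quantile normalization. For 8 h against 2 h the difference was −0.59 (SE 0.24, −1.14 to −0.04, limma adjusted p = 0.119), or −0.79 (adjusted p = 0.0162) after quantile normalization.

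**Figure D2:**
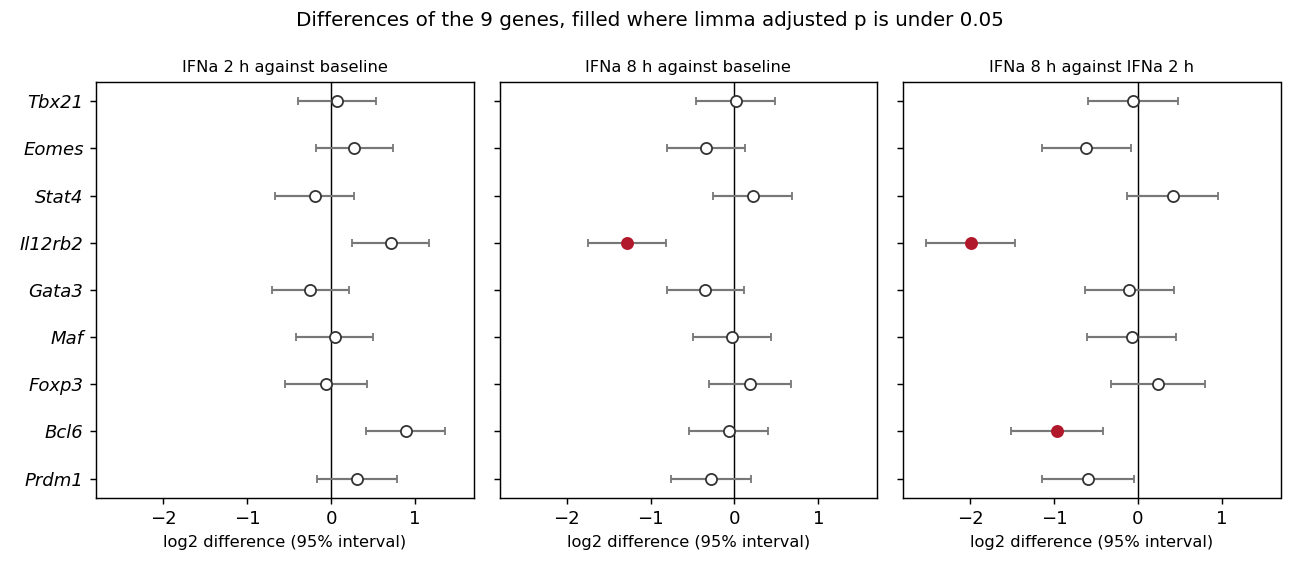
Log2 differences of the 9 genes (horizontal axis, points) with 95% intervals from the limma model (bars), for 2 h against baseline, 8 h against baseline and 8 h against 2 h. Filled points passed an adjusted p of 0.05: Il12rb2 at 8 h against baseline (−1.28) and Il12rb2 (−1.99) and Bcl6 (−0.96) at 8 h against 2 h.

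In all, 6 of the 9 genes lay above both baseline arrays at 2 h and 2 below, against 44.5% and 33% of all tested genes. At 8 h 2 lay above and 5 below, against 24.4% and 55.9%. With 9 genes, neither split is read as particular to them.

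Ratios of 2 genes within an array are free of a scale factor for the whole array, and their changes are described here without a test. The log2 ratio of Tbx21 to Gata3, the factors of the Th1 and Th2 fates, was −1.36 and −1.26 at baseline, −0.997 after 2 h and −0.95 after 8 h. Both IFNa arrays lay above both baseline arrays, by 0.32 and 0.36 from the baseline mean of −1.31 ± 0.07 (SD, n = 2). On the deposited scaling Gata3 differed more than Tbx21 at both times. With arrays centred on their medians Tbx21 stood at 0.17 and Gata3 at −0.15 at 2 h. Which gene made up more of the change at 2 h thus depended on the scaling. The ratio of Bcl6 to Prdm1 was 0.79 and 0.75 at baseline, 1.35 after 2 h and 0.98 after 8 h. It stood 0.58 above baseline at 2 h and 0.21 at 8 h, values that became 0.41 and 0.55 after quantile normalization, so which time stood higher depended on the scaling. The ratio of Tbx21 to Eomes was 2.29 and 2.48 at baseline, 2.18 after 2 h and 2.74 after 8 h, below both baseline arrays at 2 h and above both at 8 h.

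**Figure D3:**
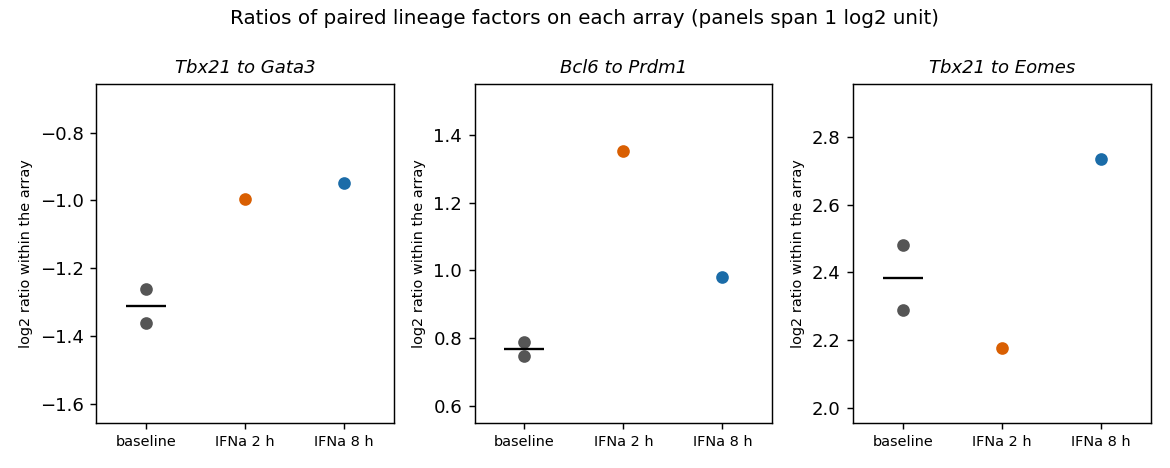
Log2 ratio of paired lineage factors within each array (vertical axis, 1 log2 unit per panel) for the 2 baseline arrays (grey, bar at the mean) and the single IFNa 2 h (orange) and 8 h (blue) arrays. Tbx21 to Gata3 is −0.997 and −0.95 on the IFNa arrays, above both baseline arrays. Bcl6 to Prdm1 is highest at 2 h (1.35) on the deposited scaling shown. After quantile normalization that ratio was higher at 8 h (1.31) than at 2 h (1.16).

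Genes that accompany each lineage were then read from lists. Of 70 listed genes tested, 4 rose and none fell at 2 h, 1 rose and 8 fell at 8 h, and none rose and 14 were lower at 8 h than at 2 h (limma). Over all tested genes 1.1% were called at 2 h, 4% at 8 h (3.35% lower) and 12.3% for 8 h against 2 h (10.8% lower). The medians of the listed genes were 0.19, −0.23 and −0.42, beside 0.06, −0.16 and −0.25 over all tested genes. Nothing is read from these counts as particular to the lists. Calls of listed genes come from the main setting alone and were not repeated with other scalings, filters or priors. Among 10 tested genes associated with the Th1 fate none passed at 2 h and the median was 0.40. An unadjusted limma p under 0.05 at 2 h was held by 4 of them, and by 1298 of all 10699 tested genes. At 8 h the chemokine Ccl5 rose (0.99, SE 0.21, adjusted p = 0.0451), measuring 9.26 and 9.51 at baseline, 9.98 after 2 h and 10.37 after 8 h. Lta, which encodes lymphotoxin alpha, fell (−1.74, SE 0.20, adjusted p = 0.00451). The interferon gamma receptor chain Ifngr2 was lower at 8 h than at 2 h (−1.16, SE 0.24, adjusted p = 0.025). Ifng, the defining Th1 cytokine, stood at 0.40 (SE 0.24) at 2 h and −0.19 (SE 0.24) at 8 h. It was dim, measuring 7.56 and 8.00 at baseline, 8.18 after 2 h and 7.58 after 8 h. The array medians were 7.61, 7.52, 7.46 and 7.64, so Ifng lay under them on baseline replicate 1 and at 8 h. The chemokine receptor Cxcr3 stood at 0.77 (SE 0.20, adjusted p = 0.0721) at 8 h. The Th1 members thus differed in direction at 8 h, with a list median of −0.22 beside −0.16 over all tested genes.

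Among 10 tested Th2-associated genes the chemokine receptor Ccr8 was, like Il12rb2, highest at 2 h and lowest at 8 h. It measured 10.18 and 10.26 at baseline, 11.57 after 2 h and 8.75 after 8 h, rose at 2 h (1.35, SE 0.20, adjusted p = 0.0183) and fell at 8 h (−1.46, SE 0.20, adjusted p = 0.00983). Il4, the cytokine that drives and marks the Th2 fate, was level at 2 h (0.06, SE 0.20) and fell at 8 h (−1.37, SE 0.20, adjusted p = 0.0128), with 9.17 and 9.17 at baseline, 9.22 after 2 h and 7.80 after 8 h. The transcription factor Nfil3 fell too (−1.46, SE 0.20, adjusted p = 0.0102). Il13, another Th2 cytokine, stood at −0.74 (SE 0.20, adjusted p = 0.0827) and did not pass. The 8 h median of the list was −0.62, beside −0.16 over all tested genes. Ccr4, Ccr8, Il4 and Nfil3 were lower at 8 h than at 2 h, a call that 10.8% of all tested genes had. For that comparison the list median was −0.59, beside −0.25 over all tested genes. Medians of the lists ran from −0.77 to −0.19 there.

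The 6 tested genes of interleukin 12 and STAT4 signalling held no call at 2 h (1 at an unadjusted limma p under 0.05, beside 1298 of all 10699 tested genes). Il12rb1, the partner chain of Il12rb2, measured 10.11 and 10.56 at baseline, 10.73 after 2 h and 9.96 after 8 h, like Il12rb2 highest at 2 h and lowest at 8 h but within a narrower range. Its differences of 0.40 (SE 0.24) and −0.38 (SE 0.24) did not pass, nor did that of 8 h against 2 h (−0.77, SE 0.28, adjusted p = 0.0892). The receptor-bound kinase Jak2 stood at 0.56 (SE 0.20) and −0.23 (SE 0.20), and its partner Tyk2 at −0.19 (SE 0.21) and −0.04 (SE 0.21). Socs1, an inhibitor of JAK kinases, fell at 8 h (−1.05, SE 0.23, adjusted p = 0.0452).

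Of 5 tested Th17-associated genes the ligand-activated factor Ahr rose at 2 h (1.29, SE 0.20, adjusted p = 0.022) and was lower at 8 h than at 2 h (−2.01, SE 0.23, adjusted p = 0.0079), measuring 8.62 and 8.66 at baseline, 9.93 after 2 h and 7.92 after 8 h. Irf4, which several helper lineages require, fell at 8 h (−1.51, SE 0.24, adjusted p = 0.0187). Of 14 tested genes associated with regulatory T cells Nt5e (CD73) rose at 2 h (1.39, SE 0.20, adjusted p = 0.0156) and the receptor Gpr83 fell at 8 h (−1.70, SE 0.22, adjusted p = 0.00802). Tnfrsf4 (OX40), Gpr83 and Nt5e were lower at 8 h than at 2 h. Il2ra, Ctla4 and Ikzf2, which mark regulatory and, for the first pair, also activated T cells, stood at −0.52 (SE 0.20), −0.24 (SE 0.20) and 0.10 (SE 0.20) at 8 h. None of these passed.

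None of 14 tested follicular helper-associated genes passed in any comparison (limma). At an unadjusted p under 0.05 there were 3, 3 and 5 of them at 2 h, at 8 h and for 8 h against 2 h. Of all 10699 tested genes there were 1298, 2636 and 3893. The medians of the list were 0.10, −0.02 and −0.27, beside 0.06, −0.16 and −0.25 over all tested genes. The interleukin 6 receptor Il6ra (0.92, SE 0.21, adjusted p = 0.105) and the inhibitory receptor Pdcd1 (0.84, SE 0.22, adjusted p = 0.17) came nearest at 2 h, with values close to that of Bcl6. Pdcd1 measured 8.41 and 8.71 at baseline, 9.40 after 2 h and 8.50 after 8 h, the order of arrays seen for Bcl6. Of 12 tested repressors and partners of these factors, Bcor, a corepressor that binds Bcl6, rose at 2 h (1.18, SE 0.21, adjusted p = 0.0409) and was lower at 8 h than at 2 h (−1.50, SE 0.24, adjusted p = 0.0138). It measured 9.28 and 9.47 at baseline, 10.56 after 2 h and 9.06 after 8 h. The transcription factor Irf8 fell at 8 h (−1.69, SE 0.21, adjusted p = 0.00661).

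**Figure D4:**
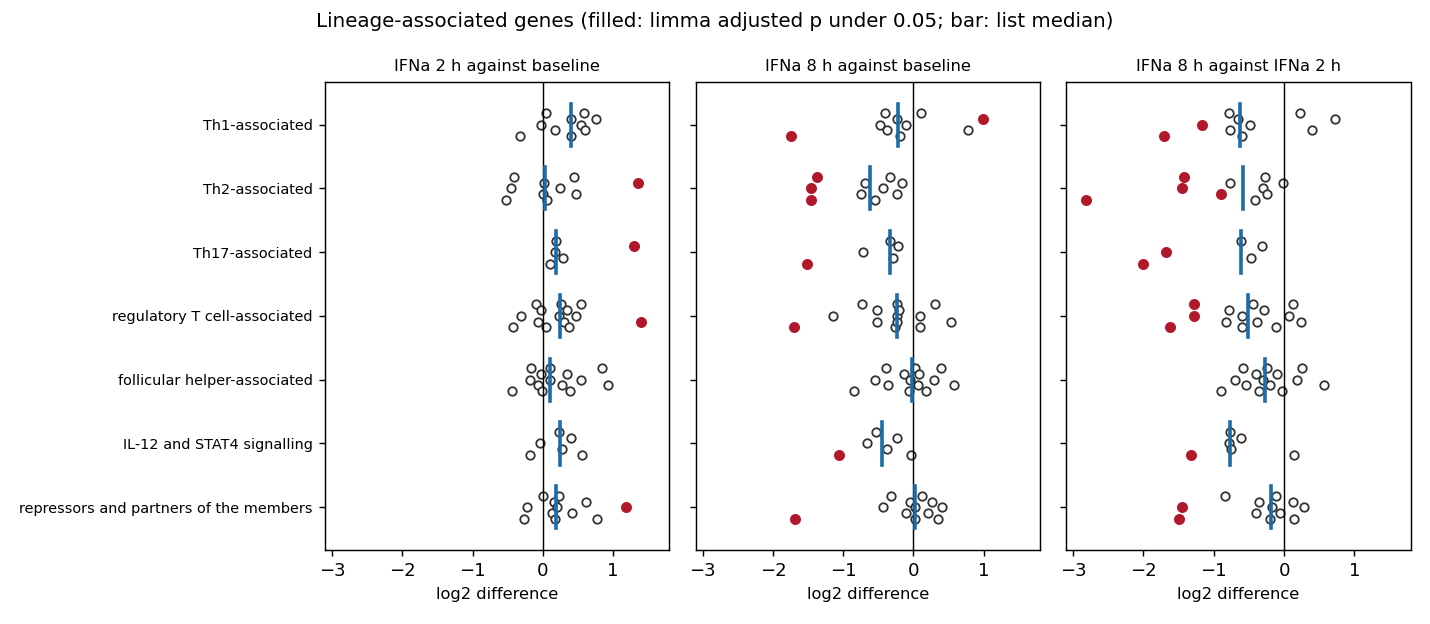
Log2 differences (horizontal axis) of the tested genes of 7 lists (rows, 1 point per gene) for 2 h against baseline, 8 h against baseline and 8 h against 2 h. Filled points passed a limma adjusted p of 0.05 and the blue bars are list medians, which for 8 h against 2 h run from −0.77 (interleukin 12 and STAT4 signalling) to −0.19 (repressors and partners).

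The course of each gene was finally compared with all other tested genes by Euclidean distance over the 4 arrays, each gene taken relative to its baseline mean on the log2 scale. Nearest to Il12rb2 were the ribosome assembly factor Nip7 (distance 0.15), the polyamine enzyme Odc1 (0.22) and the exosome nuclease Dis3 (0.25). Nip7 differed from baseline by 0.76 at 2 h and −1.25 at 8 h. Just 11 tested genes lay within a distance of 0.3 of Il12rb2. Nearest to Bcl6 were Tent4a (0.05), Mrps6 (0.08) and Zbtb2 (0.08), of 121 genes within 0.3. For the other 7 genes between 1359 (Gata3) and 2573 (Maf) of the 10699 tested genes lay as near, so many other genes shared their courses. The nearest were Pdpk1, Reep5 and Ank to Tbx21, Spint2, Cc2d1a and Tk1 to Gata3, and Prss27, Insm1 and Ssbp2 to Stat4. To Foxp3 they were Axl, Aldh16a1 and Yipf2, to Maf Ppia, Tchp and Mbnl2, to Prdm1 Tomm34, Phf23 and Rpe, and to Eomes A130010J15Rik, Rnf11 and Slc35b1.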

How the data were processed

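The authors deposited linear intensity values for 4 arrays, 1 sample each, which the submitters' processing notes credit to Affymetrix Power Tools and RMA. Versions, and which arrays were processed together, are not given in the sources used here. Log2 was taken here with no pseudocount. RMA keeps some unspecific signal, so folds of dim genes are understated, and precision is limited by how few arrays there were. Of 24922 rows, 21425 had 1 gene symbol in the platform annotation, checked against RefSeq of GRCm38.p6. The brightest row stood for a gene with several rows, and genes above the array median on at least 1 array were tested (10699). Limma 3.58.1 in R 4.3.3 fitted a mean per group, with 1 residual degree of freedom and a prior of 7.46 degrees of freedom (SD 0.175). P-values measure only the spread between the 2 baseline samples, which may be technical. The model was tested on simulated data, where 38.7% of 2-fold changes were recovered at 2 h and 43.5% at 8 h. Of 4-fold changes 98.5% were recovered at 2 h, 100% at 8 h. False calls made up 5.8% of calls at 2 h, 3.5% at 8 h and 7.9% for 8 h against 2 h. Each simulated gene's spread was drawn from the prior that limma had fitted, and genes varied independently. These shares therefore hold only where that model does and do not check it. All simulated arrays had the same spread, so the assumption that the IFNa arrays vary as the baseline arrays do was not checked.

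The genes, lists and tests were chosen with earlier results of these data known. The genes named were the 9 above, per list up to 4 called genes with the largest change (or 2 as values), and the 3 nearest in course. Other list genes (Ifng, Cxcr3, Il13, Il12rb1, Jak2, Tyk2, Il2ra, Ctla4 and Ikzf2) were named after their values were seen. Alternatives were other array scalings, filters and priors, the mean of a gene's rows, and leaving out each baseline array.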

Additional observations from a re-analysis of the deposited data

Results flagged for a closer look

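The responses at 2 h and 8 h differed from each other for 2 of the 9 genes by the limma contrast of 8 h against 2 h, which 12.3% of all tested genes passed (10.8% lower at 8 h). Il12rb2 stood above baseline at 2 h (0.71) and below it at 8 h (−1.28), a difference of −1.99 on the log2 scale (SE 0.23, adjusted p = 0.0079). Bcl6 stood at 0.89 at 2 h and −0.07 at 8 h, a difference of −0.96 (SE 0.24, adjusted p = 0.0382), and that call was lost with no filter on dim genes (adjusted p = 0.0775). Each rests on 1 array per time.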

How the results depend on the processing

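Of 222 values of the 9 genes under other settings, 205 kept their direction and, where a test was possible, their side of the threshold. Other filters and priors, and the mean of a gene's rows, left the differences of these genes as they were. Only other scalings and leaving out a baseline array could change a direction, so the count overstates how stable the directions were. Il12rb2 kept its direction and, where tested, its side throughout: −1.36 to −1.03 at 8 h, −2.17 to −1.63 for 8 h against 2 h and 0.60 to 0.81 at 2 h. Without baseline replicate 1 or 2 it stood between −1.31 and −1.25 at 8 h, and Bcl6 between 0.82 and 0.97 at 2 h. Quantile normalization turned Tbx21 (−0.070 at 2 h, 0.25 for 8 h against 2 h), Maf (−0.056 at 2 h, 0.25 at 8 h and 0.30 for 8 h against 2 h), Gata3 (0.13 for 8 h against 2 h) and Bcl6 (0.11 at 8 h). Centring turned Foxp3 at 2 h (0.038) and Tbx21 at 8 h (−0.067). Over the settings without baseline replicate 1 or 2 the sign was not fixed for Foxp3 at 2 h (−0.18 to 0.057), nor for Tbx21 (−0.050 to 0.075) and Bcl6 (−0.15 to 0.0056) at 8 h. The cause was not tested. Of the 9 genes 1 passed at 2 h after quantile normalization and 1 with centring (Bcl6), and for 8 h against 2 h 4 passed after quantile normalization and 1 with no filter. All genes called numbered 441 (quantile) and 298 (centred) at 2 h against 118, and 1566, 794, 143 (no filter) and 255 (60th percentile filter) at 8 h against 428. For 8 h against 2 h they numbered 2308, 2387 and 415 (no filter) against 1311. These counts are of 19752 tested genes with no filter and 8607 with the 60th percentile filter, against 10699 in the main setting. The Tbx21 to Eomes ratio change at 8 h was 0.52 after quantile normalization against 0.35, and those of Bcl6 to Prdm1 are given above (0.41 and 0.55). Without a baseline array no residual degree of freedom remains, so no calls can be counted. No paired analysis was possible because the groups share only replicate number 1. Calls of single genes outside the 9 were not repeated under other settings. Some lay close to the threshold, such as Ccl5 and Socs1 at 8 h (limma adjusted p = 0.0451 and 0.0452).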

Other observations

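Signature cytokines of several lineages were dim, under the array median on all 4 arrays, and were not tested. On the log2 scale Il17a measured 6.72 and 6.40 at baseline, 6.44 after 2 h and 6.81 after 8 h, and Il21, the follicular helper cytokine, 6.31, 6.23, 6.30 and 5.91. Il5 measured 6.74 and 7.06 at baseline, 6.59 after 2 h and 6.54 after 8 h. Il10 measured 6.27 and 6.37 at baseline, 7.01 after 2 h and 5.86 after 8 h, highest at 2 h and lowest at 8 h like Il12rb2. The cytokine receptor chain Il18r1, a Th1 marker, measured 6.77 and 6.50 at baseline, 7.21 after 2 h and 6.36 after 8 h. Of the dim genes on the lists, these are 5 chosen after their values were seen.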
